A study of Mus musculus with 12 samples.

Results

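Zbp1 encodes Z-DNA binding protein 1, a cytosolic sensor of nucleic acids in the left-handed Z form. It is 1 gene of the 55573 measured here, taken as the row that carries its symbol, ENSMUSG00000027514.14, in every deposited gene table. RNA was sequenced from 12 cultures of mouse embryonic fibroblasts, which SV40 large T antigen had immortalised, in 4 groups of 3 cultures that the labels describe as independent. In what is called the Fadd line, cells of genotype Fadd -/-, Mlkl -/- carried either an empty vector (knockout) or re-expressed Fadd (put back). In the Casp8 line, cells of genotype Casp8 -/-, Mlkl -/- carried either an empty vector (knockout) or re-expressed Casp8 (put back). All 4 groups therefore lack Mlkl, none was treated, and all were harvested 24 h after plating. The series title concerns the control of ZBP1 expression by caspase-8 and FADD, and each comparison below sets knockout against put-back cultures of the same line, or the 2 lines against each other. No group of wild-type cells was among the samples analysed.

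ZBP1 binds Z-form RNA or DNA through its Zα domains and recruits the kinases RIPK1 and RIPK3 through RIP homotypic interaction motifs. RIPK3 then phosphorylates MLKL, the pore-forming executor of necroptosis, while FADD and caspase-8 recruited to the same complex drive apoptosis and restrain necroptosis. Zbp1 is itself a gene induced by interferon, so its transcript is usually low in resting fibroblasts and rises when interferon signalling is active. The gene lies on the minus strand of mouse chromosome 2 (mm10, chr2:173206612-173218923) and has 3 annotated transcripts in GENCODE M21. These are coding transcripts of 1989 and 770 bases and a transcript of 3325 bases with a retained intron.

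The libraries held 33918361 to 59388570 counts each, so 3 counts correspond to between 0.0527 and 0.0878 CPM (counts scaled to library size with TMM factors). The targeted transcripts followed the labels. Fadd, the adaptor of death receptors, had 0.176, 0.0364 and 0.0876 CPM in the Fadd-line knockout cultures, against 26.1, 19.1 and 25.8 CPM where it was put back. Casp8, the protease partner of FADD, had 12.4, 11.3 and 10.4 CPM in the Casp8-line knockout cultures, against 67.7, 172.1 and 182.2 CPM where it was put back. In the line where it was not targeted, Fadd averaged 10.4 and 9.65 CPM in the knockout and put-back groups, and Casp8 averaged 43.1 and 48.8 CPM. Every put-back culture thus held more of the re-expressed transcript than these means of the other line. Of 11 fibroblast markers, 9 and 8 exceeded 1 CPM in at least 1 library of the knockout and put-back groups of the Fadd line. In each Casp8-line group 8 did so. Thy1 and Lum were at 0 in every library of the Fadd line. The fibroblast markers summed to 2030 to 3120 CPM in Fadd-line knockout and 3300 to 4660 CPM in put-back cultures. In the Casp8 line these sums were 6630 to 18000 and 10100 to 14500 CPM. The 5 epithelial markers summed to 1.01 to 4.92 CPM in Fadd-line knockout and 6.08 to 34.5 CPM in put-back cultures. In the Casp8 line those sums were 4.13 to 15.1 and 3.42 to 4.96 CPM. Leukocyte markers, 12 in all, summed to 1.88 to 4.27 CPM in Fadd-line knockout cultures and 2.24 to 3.80 CPM in those with Fadd put back. They summed to 1.49 to 2.81 CPM in Casp8-line knockout cultures and 1.49 to 1.69 CPM in those with Casp8 put back. Col1a2, the fibrillar collagen chain on the fibroblast list, averaged 1.22 CPM in Fadd-line knockout cultures and 255.9 CPM with Fadd put back (log2 change -7.70, edgeR adjusted p = 0.000557), against 4321 and 4155 CPM in the knockout and put-back groups of the Casp8 line. Whether this has a part in the results on Zbp1 was not tested. Lyz2 exceeded 1 CPM in some library of both Fadd-line groups, and Csf1r in some Casp8-line knockout library. Cd68 did so with Fadd put back and in both Casp8-line groups. The leukocyte gene Ptprc was at 0 in both Fadd-line groups and the T cell gene Cd3e in all 4 groups.

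Zbp1 was most abundant in the Fadd-line knockout cultures and was close to the detection limit in the Casp8 line with Casp8 put back. In Fadd-line knockout cultures 1, 2 and 3 it reached 66.1, 7.28 and 13.0 CPM (3761, 400 and 594 counts). In the cultures with Fadd put back it reached 0.235, 2.99 and 3.78 CPM (11, 124 and 174 counts). All 3 knockout cultures lay above all 3 put-back cultures, but the spread within each group was wide, 9.07-fold between the highest and lowest knockout culture and 16.1-fold between those with Fadd put back.

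In the Casp8 line the same order held at a much lower level. Casp8-line knockout cultures 1, 2 and 3 had 0.300, 0.874 and 1.20 CPM (13, 38 and 41 counts). The cultures with Casp8 put back had 0.136, 0.0179 and 0 CPM (7, 1 and 0 counts). A count of 0 in the third of these allows up to 0.0617 CPM, taking 3 counts as the limit. The knockout and put-back cultures did not overlap, but knockout culture 1 (exact 95% Poisson interval 0.160 to 0.512 CPM) and put-back culture 1 (0.0547 to 0.280 CPM) were not separated beyond counting error, which is all these intervals cover.

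**Figure D1:**
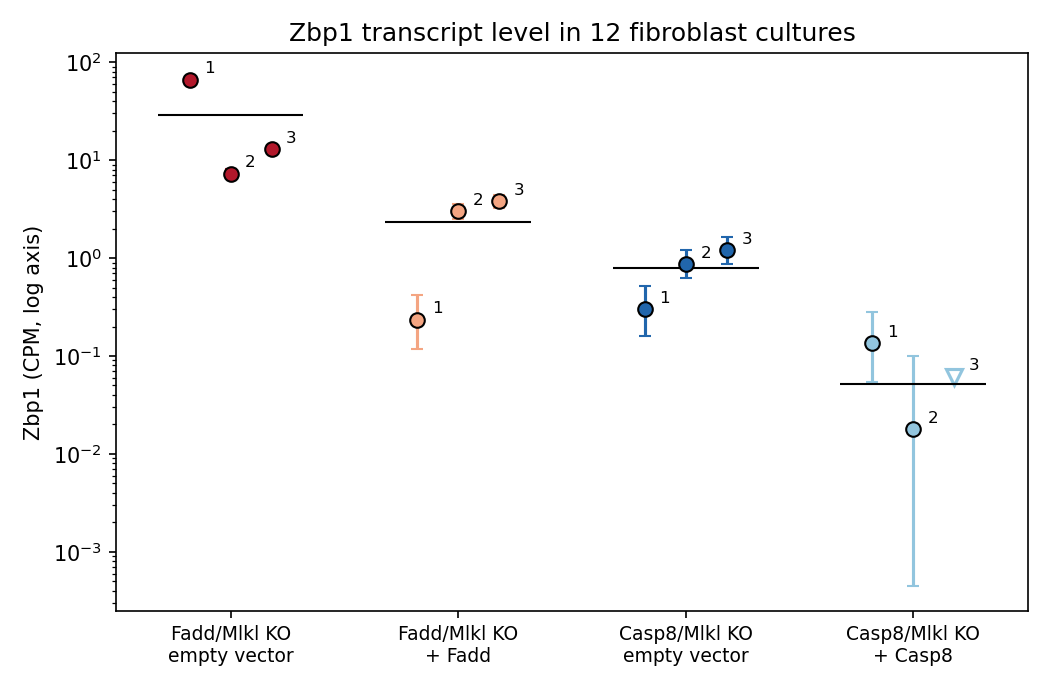
Zbp1 in CPM (log axis) in each of the 12 cultures, by group; numbers are replicate numbers, lines are group means, error bars are exact 95% Poisson intervals of the count, and the open triangle marks the 3-count limit of the culture with no Zbp1 counts. The 3 Fadd-line knockout cultures sit between 7.28 and 66.1 CPM, above the cultures with Fadd put back at 0.235 to 3.78 CPM, and the Casp8-line knockout cultures at 0.300 to 1.20 CPM sit above those with Casp8 put back.

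As group means, Zbp1 was at 28.8 ± 32.4 CPM in Fadd-line knockout cultures and 2.33 ± 1.86 CPM with Fadd put back (SD, n = 3 each). It was at 0.791 ± 0.456 CPM in Casp8-line knockout cultures and 0.0513 ± 0.0740 CPM with Casp8 put back (SD, n = 3 each). The order of the group means was thus Fadd knockout, Fadd put back, Casp8 knockout and Casp8 put back, and the middle groups overlapped, since Fadd put-back culture 1 at 0.235 CPM lay below all 3 Casp8-line knockout cultures. Set among 12812 tested protein-coding genes by TPM, a level per transcript length, Zbp1 in Fadd-line knockout culture 1 stood above 91.6% of them. It stood above 41.6% and 55.8% in the other Fadd-line knockout cultures, above 5.19 to 31.4% with Fadd put back, above at most 17.0% in Casp8-line knockout cultures and above at most 5.59% with Casp8 put back.

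The fitted changes were of like size in both lines, and neither passed the test over all genes. With edgeR's quasi-likelihood test on 16396 genes, the log2 change of knockout over put back was 3.62 (SE 1.10) in the Fadd line, with an unadjusted p of 0.00695 and an adjusted p of 0.189. For the Casp8 line it was 3.87 (SE 1.37), with an unadjusted p of 0.0166 and an adjusted p of 0.701 by the same edgeR test. In these contrasts 1.52% and 0.0061% of all genes passed an adjusted p of 0.05. Averaged over both lines the log2 change was 3.75 (SE 0.87, edgeR adjusted p = 0.0989), where 0.543% of genes passed. This mean passed with DESeq2 (adjusted p = 0.00196, with 3.3% of genes passing), without the filter on low counts (edgeR adjusted p = 0.0349, with 0.654% passing) and without the replicate 1 libraries (edgeR adjusted p = 0.00154, with 10.9% passing), and not in the other alternatives run, whose adjusted p reached 0.365.

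As a single value, outside any correction over genes, the mean difference of log2 CPM within lines was 3.45, with knockout higher. An exact two-sided permutation test that reassigns cultures within each line gave p = 0.005, the smallest its 400 arrangements allow. With 3 cultures against 3, 1 line alone cannot go below p = 0.1 in such an exact test. The reassignment ignores replicate numbers, although same-numbered cultures of a line shared part of their deviations over all genes, as described below. For Zbp1 itself they deviated in opposite directions in every pair. The p-value of this exact test therefore holds only if the cultures of a line are independent of one another. A test that swaps cultures only within same-numbered pairs was not run. Zbp1 was also chosen with earlier results of these data known, so this p-value is not that of an independent test. With the replicate number as a block within each line, the edgeR mean log2 change over both lines was 3.38 and did not pass. Because the libraries come from bulk cultures, fewer cells that express Zbp1 and less Zbp1 RNA per cell cannot be told apart.

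The Fadd-line value leaned on replicate 1. The labels do not say what a replicate number marks. Over all genes, same-numbered cultures of a line had positively correlated deviations from their group means, weakly so in the Casp8 line (0.127 to 0.305). Zbp1 and the interferon score described below went the other way. In every same-numbered pair 1 culture lay above its group mean and the other below it. Taken by number, the ratio of knockout to put-back CPM was 281, 2.44 and 3.44 in the Fadd line. The replicate 1 pair held both the highest knockout culture and the lowest put-back culture. Without knockout culture 1 the log2 change in the Fadd line was 2.12 (edgeR adjusted p = 0.563), and without both replicate 1 cultures it was 1.58. In the Casp8 line the ratio was 2.2 for replicate 1 and at least 19.4 for replicate 3, where the put-back culture had no counts and 3 counts were used in its place; replicate 2 had 0.874 CPM in knockout culture 2 and 0.0179 CPM, a single count, in its put-back partner. Without put-back culture 1 the log2 change in the Casp8 line was 5.99 (edgeR adjusted p = 0.294).

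The difference between the changes of the 2 lines, Fadd minus Casp8, was -0.24 (SE 1.40, edgeR adjusted p = 1), where 0.842% of genes passed. With all replicate 1 libraries left out it was -4.82 (edgeR adjusted p = 0.0176), in a fit where 11.2% of all genes passed, among them 36 of the 53 interferon genes described below.

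Zbp1 also differed between the lines at matched status. Between the knockout groups, Fadd line over Casp8 line, the log2 difference was 5.19 (SE 1.19, edgeR adjusted p = 0.0189), against a background of 10.5% of genes that passed. With the replicate number as a block within each line the adjusted p was 0.0543. Leaving out Fadd knockout culture 1, or Casp8 knockout culture 2 or 3, gave edgeR adjusted p-values of 0.0670, 0.0796 and 0.0634. Between the put-back groups, Fadd line over Casp8 line, the log2 difference was 5.43 (SE 1.37, edgeR adjusted p = 0.0409), with 6.34% of genes passing. With a replicate block its adjusted p was 0.0576 over all libraries and 0.0732 within lines. It was 0.113 without Fadd put-back culture 2, 0.0992 without Fadd put-back culture 3, 0.175 without Casp8 put-back culture 2 and 0.156 without Casp8 put-back culture 3. The labels do not say how many independent cell lines stand behind each genotype, so the gene knocked out and any other difference between the lines cannot be told apart in these comparisons.

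Type I interferons act through a receptor at the cell surface to switch on a common set of antiviral genes. A list of 55 such genes, which does not hold Zbp1, was used to follow this response, and 53 of them were tested. Their mean log2 CPM, called the interferon score, was 7.05, 5.27 and 5.25 in Fadd-line knockout cultures 1, 2 and 3, against 2.43, 4.23 and 4.32 with Fadd put back. It was 1.38, 3.49 and 3.24 in Casp8-line knockout cultures, against 1.43, 0.47 and 0.74 with Casp8 put back. The Fadd-line knockout cultures scored above every other culture, whereas Casp8-line knockout culture 1 scored just below the highest put-back culture of its line.

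Zbp1 followed the interferon score from culture to culture. In the Fadd line Pearson's r of log2 CPM was 0.991 over 6 cultures (exact permutation p = 0.00278, adjusted 0.0222), and Spearman's rho was 0.943 (exact permutation p = 0.0167, adjusted 0.0333). The Casp8 line gave r = 0.934 (n = 6, exact permutation p = 0.0222, adjusted 0.0356) and rho = 0.829 (exact permutation p = 0.0583, adjusted 0.0778). All p-values are two-sided and were adjusted by Benjamini-Hochberg over 8 tests of 4 relations. They hold only if the cultures of a line are independent of one another, which the pairing by replicate number puts in doubt. Zbp1 and the list were also chosen with earlier results of these data known. Without the 2 cultures farthest from the median score, r was 0.925 for the Fadd line (n = 4, exact permutation p = 0.167) and 0.875 for the Casp8 line (n = 4, exact permutation p = 0.25). With 4 cultures the smallest p such a test can give is 0.0417, so it says little on whether the relation rests on the cultures left out. These were knockout and put-back culture 1 in the Fadd line and knockout cultures 2 and 3 in the Casp8 line.

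**Figure D2:**
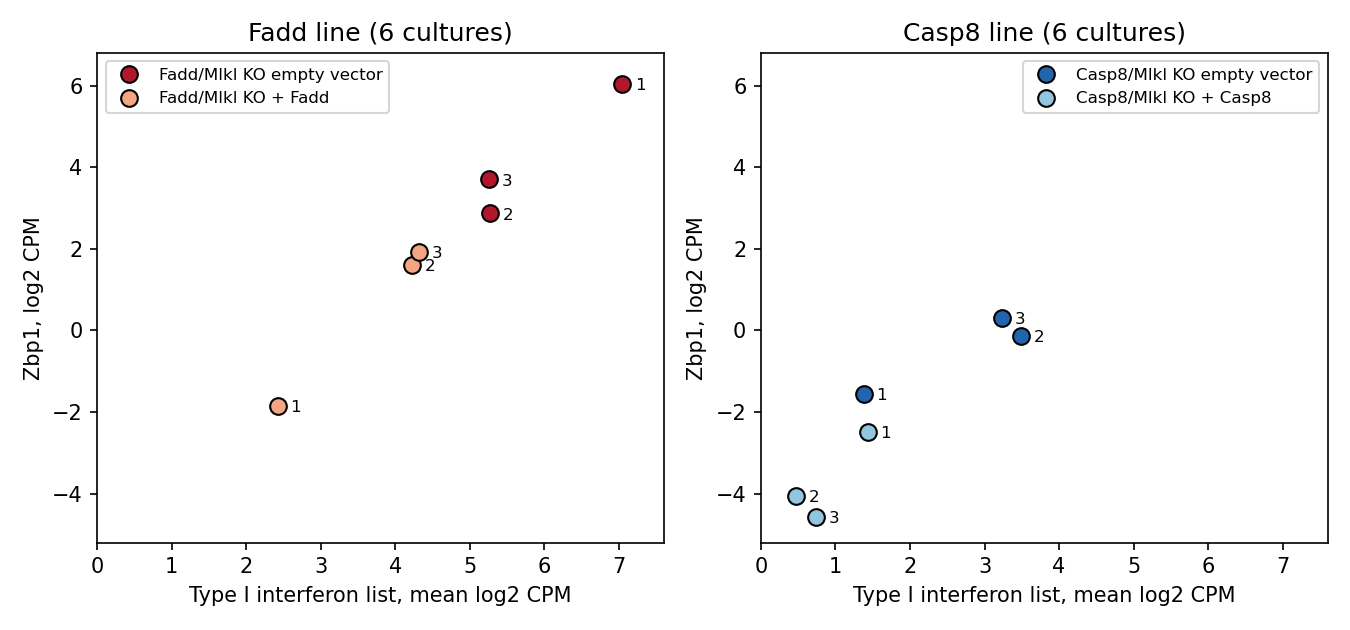
Zbp1 (log2 CPM, vertical axis) against the interferon score (mean log2 CPM of 53 type I interferon genes, horizontal axis) in the 6 cultures of each line; points are cultures, colours are groups and numbers are replicate numbers. In the Fadd line the points run from put-back culture 1 (score 2.43) to knockout culture 1 (score 7.05), and in the Casp8 line no score exceeds 3.49.

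These values mix the change between groups with the spread inside them, so the relation was also taken on deviations from the group means. There r was 0.915 over 12 cultures (permutation within groups, exact p = 0.0108, adjusted 0.0329), and rho was 0.860 (exact p = 0.0123, adjusted 0.0329). This permutation shuffles each group separately and so treats same-numbered cultures as unlinked. Their scores deviated in opposite directions in every pair, so the deviations may hold fewer independent units than 12. Leaving out each culture in turn kept r between 0.882 and 0.952. Without the 2 farthest deviations, those of Casp8-line knockout culture 1 and Fadd put-back culture 1, r was 0.910 and the exact p was 0.0972. With the antigen presentation list in place of the interferon list, r within groups was 0.893 (exact permutation p = 0.00463). For comparison, the summed CPM of the annotated endogenous retrovirus regions, a candidate source of Z-form RNA, gave r = 0.357 with Zbp1 within groups (exact permutation p = 0.197, adjusted 0.225) and rho = 0.322 (exact permutation p = 0.294). No annotated retrovirus region among 60983 overlapped Zbp1.

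**Figure D3:**
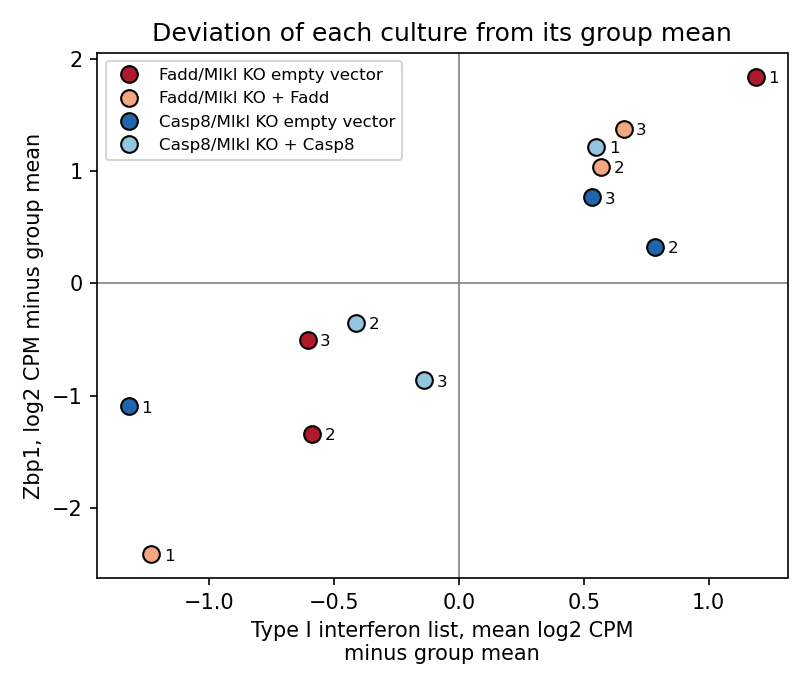
Deviation of each of the 12 cultures from its group mean in Zbp1 (log2 CPM, vertical axis) and in the interferon score (mean log2 CPM, horizontal axis), with colours for groups and replicate numbers beside the points. Every culture above its group mean in the score was also above it in Zbp1, with r = 0.915 over the 12 cultures.

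Zbp1 varied over a wider range than the average gene of the interferon list. Its log2 CPM was 1.00, 2.40 and 1.55 below the score in Fadd-line knockout cultures and 4.28, 2.63 and 2.38 below it with Fadd put back. It was 2.93, 3.61 and 2.92 below the score in Casp8-line knockout cultures and 3.92, 4.53 and 5.31 below it with Casp8 put back. The fitted log2 changes of the 53 genes had a median of 1.97 in the Fadd line, where the median of all genes tested was 0.0037. Their median was 2.05 in the Casp8 line, where that of all genes was 0.0079. Zbp1 exceeded these list medians by 1.65 and 1.82. On log2(TPM + 1), which compresses low levels, Zbp1 was below the list median in the Casp8 line, at 0.56 against 0.81. In the Fadd line 6 of the 53 genes had a larger fitted change, namely Oas2, Oas3, Oasl1, Rsad2, Phf11d and Gm4951. Those of the Casp8 line were Oas1a, Oas1g, Oasl2 and Rsad2. Oas3 and Sp100 had no counts in the Casp8 put-back cultures and were at least 8.15-fold and at least 20.2-fold higher in knockout cultures, against 3 counts over the group. The bound for Sp100 lies above the 14.6-fold fitted for Zbp1, and that for Oas3 lies below it. With both at these bounds the list median was still 2.05. The genes above Zbp1 include several oligoadenylate synthetases, which sense double-stranded RNA and activate RNase L, and Rsad2, which encodes the antiviral enzyme viperin.

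The order of the cultures was shared by most of the list in the Fadd line. Of the 53 interferon genes, 51 were highest in Fadd-line knockout culture 1, as Zbp1 was, beside 26.7% of all genes tested. There 50 were lowest in put-back culture 1, beside 17.5% of all genes, and 45 had all knockout cultures above all put-back cultures, beside 7.79% of all genes. Within the Casp8 line 17 of the 53 separated the groups completely as Zbp1 did, beside 5.78% of all genes. Only 10 were highest in knockout culture 3, where Zbp1 peaked, beside 20.8% of all genes. Only 2 were lowest in put-back culture 3, where Zbp1 was lowest, beside 12.2% of all genes. The highest and lowest cultures of Zbp1 were thus not shared by most of the list in the Casp8 line.

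Calls on single interferon genes were few. In the Fadd line edgeR called 1 of the 53, higher, where 1.52% of all genes passed. An unadjusted p under 0.05 was found for 41, beside 1682 of all 16396 genes, and DESeq2 called 16, beside 4.25% of all genes. DESeq2 gave no adjusted p for Ifit3, Mx1, Ifi44 and Uba7, named here for that reason alone, so these could not be called by it. The gene edgeR called was Oasl1, at 28.6 ± 26.4 CPM in knockout and 1.86 ± 0.81 CPM in put-back cultures (SD, n = 3 each), a log2 change of 3.94 with an edgeR adjusted p of 0.00917. Of the same 53 genes edgeR called 0 in the Casp8 line, where 0.0061% of all genes passed. There 33 had an unadjusted p under 0.05, beside 930 of all 16396 genes, and DESeq2 called 13, beside 0.872% of all genes. Over both lines Oasl1 and Slfn8 passed, and DESeq2 called 35, beside 3.3% of all genes. Slfn8, a member of the schlafen family, had a mean log2 change of 3.32 (edgeR adjusted p = 0.0406). With the replicate block within lines neither passed, at adjusted p = 0.0611 for Oasl1 (0.0600 in the Fadd line) and 0.132 for Slfn8.

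The interferon genes with the highest mean TPM gave values below that of Zbp1. Ifitm3, which blocks viral entry at membranes, had a log2 change of 1.66 in the Fadd line, against 0.89 in the Casp8 line. Bst2, the virion tether also called tetherin, had 2.13 and 1.73, and Isg15, a ubiquitin-like modifier, had 2.16 and 2.63. Eif2ak2, the double-stranded RNA kinase PKR, had 1.02 and 0.52. Ifi27 departed from Zbp1 in the Fadd line, at 76.1 ± 21.6 CPM in knockout and 84.9 ± 35.8 CPM with Fadd put back (SD, n = 3 each), while its log2 change in the Casp8 line was 1.94. None of these 5 passed in either line by edgeR.

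Genes of antigen presentation and of the interferon gamma response were the second group read beside Zbp1. Of 31 tested, edgeR called 1 in the Fadd line, higher, beside 1.52% of all genes. This was Ifi47, an immunity-related GTPase (log2 change 3.48, edgeR adjusted p = 0.0114). In that line 24 had an unadjusted p under 0.05, beside 1682 of all 16396 genes, and DESeq2 called 13, beside 4.25%. EdgeR called 0 in the Casp8 line, beside 0.0061% of all genes. There 23 had an unadjusted p under 0.05, beside 930 of all 16396 genes, and DESeq2 called 11, beside 0.872%. Ifi47 had 88.2 ± 44.7 CPM in Fadd-line knockout cultures and 7.91 ± 3.96 CPM with Fadd put back (SD, n = 3 each). The median log2 change of the 31 was 1.96 for the Fadd line and 2.11 for the Casp8 line. Over both lines DESeq2 called 23, beside 3.3% of all genes. By edgeR Ifi47 and H2-K1, an MHC class I heavy chain, passed (H2-K1 log2 change 2.13, edgeR adjusted p = 0.0481), beside 0.543% of all genes. With the replicate block within lines neither passed, at adjusted p = 0.0568 for Ifi47 (0.0614 in the Fadd line) and 0.0973 for H2-K1. H2-K1 had 1254 ± 906 CPM in Fadd-line knockout cultures and 323.1 ± 117 CPM with Fadd put back (SD, n = 3 each).

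NF-kappaB and inflammatory genes had smaller fitted changes, with a median log2 change over 22 tested of 0.66 for the Fadd line and 0.67 for the Casp8 line. EdgeR called 1 in the Fadd line, Relb, beside 1.52% of all genes, and 0 in the Casp8 line, beside 0.0061%. An unadjusted p under 0.05 was found for 9 in the Fadd line, beside 1682 of all 16396 genes. In the Casp8 line it was found for 11, beside 930 of all 16396 genes. DESeq2 called 5 in the Fadd line, beside 4.25% of all genes, and 2 in the Casp8 line, beside 0.872%. Relb, a subunit of the noncanonical NF-kappaB pathway, had 60.9 ± 16.1 CPM in Fadd-line knockout cultures and 32.3 ± 2.95 CPM with Fadd put back (SD, n = 3 each; log2 change 0.92, edgeR adjusted p = 0.0338). With the replicate block within lines Relb did not pass in the Fadd line (adjusted p = 0.0643), while Nfkb2 and Tnip1 did, at 0.046 and 0.0423, Tnip1 being named after its value was seen.

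**Figure D4:**
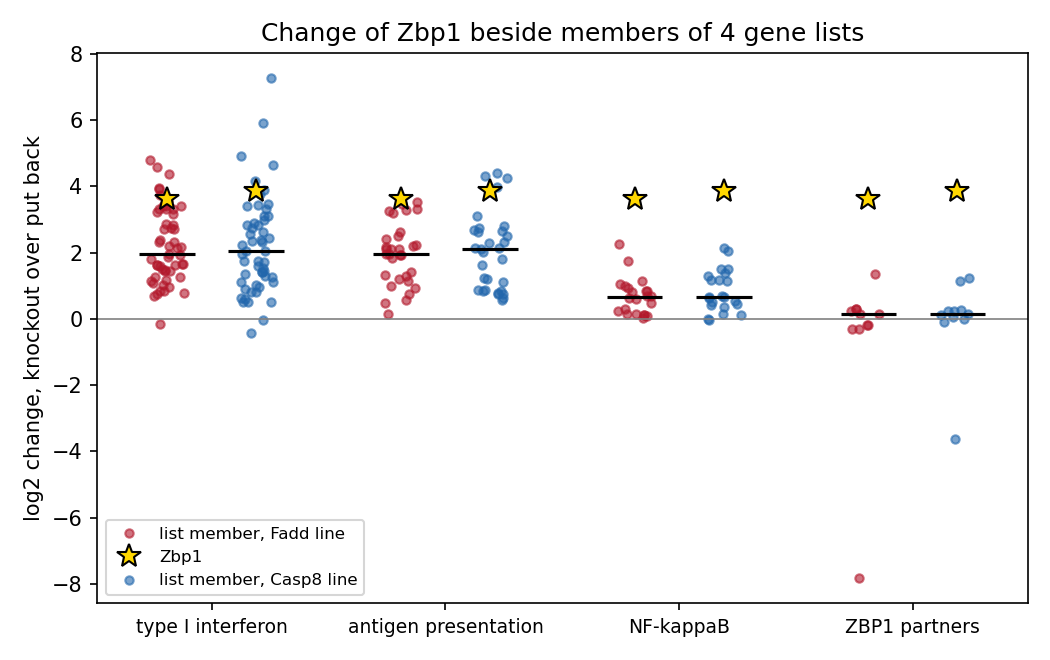
Log2 change, knockout over put back, of the tested members of 4 gene lists (points) in the Fadd line (red) and the Casp8 line (blue), with the list median (line) and Zbp1 (star, 3.62 and 3.87). In this edgeR fit Zbp1 lies above the medians of 1.97 and 2.05 for type I interferon genes, which for the Casp8 line turns on log2(TPM + 1), and the lowest points among the ZBP1 partners are Fadd and Casp8, the genes knocked out.

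The genes most like Zbp1 were ranked by Pearson's r of log2 CPM over the 12 cultures, after the mean of each line was subtracted. This is a description, since the cultures share their group and depth. Psmb10, an inducible subunit of the immunoproteasome, ranked first (r = 0.985), and by Spearman's rho it ordered the 12 values exactly as Zbp1 did (rho = 1). Its range was much narrower, at 79.7, 48.4 and 55.3 CPM in Fadd-line knockout cultures against 17.5, 36.7 and 41.9 CPM with Fadd put back, and at 14.8, 17.9 and 18.2 CPM in Casp8-line knockout cultures against 13.8, 8.35 and 8.15 CPM with Casp8 put back.

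Next came Gbp3 (r = 0.976) and Gbp6 (r = 0.972), guanylate-binding proteins of cell-autonomous immunity, Slfn8 (r = 0.973) and Iigp1 (r = 0.972), an immunity-related GTPase. Gbp3 had 253.2, 47.4 and 60.0 CPM in Fadd-line knockout cultures against 4.53, 25.2 and 29.0 CPM with Fadd put back. Iigp1 had 96.8, 31.6 and 26.2 CPM there, against 0.299, 8.72 and 4.36 CPM with Fadd put back. The other genes of the first 10 were 9330175E14Rik (r = 0.963), Mndal (r = 0.962), H2-Q5 (r = 0.959), Cmpk2 (r = 0.957) and Rsad2 (r = 0.957). Mndal is a member of the interferon-inducible p200 family, H2-Q5 is an MHC class Ib gene, and Cmpk2 is a mitochondrial nucleotide kinase that neighbours Rsad2 in the genome. H2-Q5, Gbp3 and Gbp6 belong to families of close paralogs, so part of their counts may be shared with relatives. All 10 were also among the 100 most like Zbp1 by rho, by deviations from group means and in the Fadd line alone, and 6 of the 10 were in the Casp8 line alone.

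**Figure D5:**
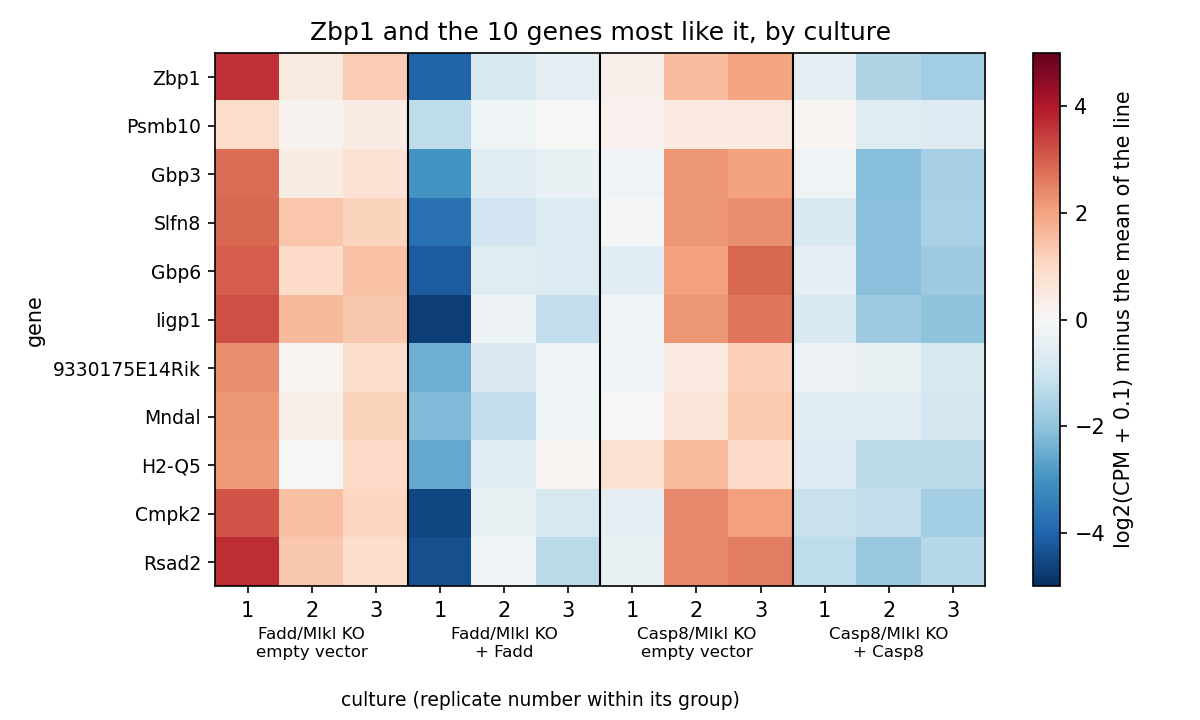
Zbp1 and the 10 genes most like it (rows, from r = 0.985 at the top) in the 12 cultures (columns, by group and replicate number); colour is log2(CPM + 0.1) minus the mean of that line. Fadd-line knockout culture 1 is the highest and put-back culture 1 the lowest of its line in every row, and Psmb10 has the narrowest range.

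Across the lists, the median r with Zbp1 was 0.909 for the interferon genes and 0.888 for the antigen presentation genes, beside -0.01 for all genes tested. It was 0.733 for the NF-kappaB list, 0.667 for the upstream sensing and signalling genes and 0.152 for the ZBP1 partner list. For genes that limit or edit double-stranded and Z-form RNA it was 0.117. Of all genes 217 (1.32%) had an r above 0.8, among them 44 of the 53 interferon genes and 25 of the 31 antigen presentation genes. The interferon genes least like Zbp1 were Ifit2 (r = 0.34), Ifit1bl1 (r = 0.457) and Ifi27 (r = 0.531), the first 2 chosen after their values were seen. On deviations from group means, 52 of 53 interferon genes and 31 of 31 antigen presentation genes had an r above 0, beside 50.2% of all genes.

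Among the signalling genes upstream of the interferon response, 22 of 23 were tested and edgeR called 0 in either line. Of all genes 1.52% passed in the Fadd line and 0.0061% in the Casp8 line. In each line 6 of the list had an unadjusted p under 0.05, beside 1682 and 930 of all 16396 genes. DESeq2 called 1 in the Fadd line, beside 4.25% of all genes, and 2 in the Casp8 line, beside 0.872%. Irf7, the transcription factor that amplifies interferon production, had the largest fitted change of these in the Fadd line, at 188.4 ± 227 CPM in knockout and 20.3 ± 6.17 CPM with Fadd put back (SD, n = 3 each; log2 change 3.22, edgeR adjusted p = 0.192). Usp18, which restrains signalling at the interferon receptor, had log2 changes of 2.31 and 3.78 in the Fadd and Casp8 lines. Ddx58, the RNA sensor RIG-I, had 1.25 and 1.13, and Ifih1, the sensor MDA5, had 1.48 and 0.62. Irf9, a transcription factor of the interferon response, had 1.16 in the Fadd line, against 1.40 in the Casp8 line. Tmem173, the adaptor STING, had 0.23 in the Fadd line, against 1.43 in the Casp8 line.

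The type I interferon receptor chains and the proximal kinases had small fitted changes. Ifnar1 and Ifnar2, the receptor chains for type I interferon, had log2 changes of -0.21 and -0.01 in the Fadd line, and of 0.13 and 0.12 in the Casp8 line. The adaptor Mavs had -0.12 and 0.05, the kinase Tbk1 -0.08 and 0.08, and the receptor kinase Jak1 0.10 and 0.14, in the Fadd and Casp8 lines. Ifngr1 and Ifngr2, the receptor chains for interferon gamma, had log2 changes of 0.30 and 0.27 in the Fadd line. In the Casp8 line theirs were 0.17 and 0.72, the latter with an edgeR adjusted p of 0.66. Ifnb1, the interferon beta gene, was too low to be tested. It had 35, 2 and 2 counts in Fadd-line knockout cultures 1, 2 and 3 against 0, 1 and 0 with Fadd put back, and 0, 1 and 0 counts in Casp8-line knockout cultures against 1, 0 and 0 with Casp8 put back. Fadd-line knockout culture 1, where Zbp1 was highest, was thus the 1 culture with more than 2 Ifnb1 counts.

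The list of ZBP1 partners, which also holds genes of TNF and TLR3 signalling, gave no other call than the genes knocked out. Of 11 partner genes, edgeR called 1 in each line, the gene knocked out in that line, Fadd (log2 change -7.84, adjusted p = 1.319e-05) and Casp8 (log2 change -3.63, adjusted p = 0.00371). Of all genes 1.52% passed in the Fadd line and 0.0061% in the Casp8 line. Ripk3 was at 27.0 ± 6.61 TPM in Fadd-line knockout cultures and 27.1 ± 5.09 TPM with Fadd put back (SD, n = 3 each). It was at 31.6 ± 3.57 TPM in Casp8-line knockout cultures and 14.3 ± 7.69 TPM with Casp8 put back (SD, n = 3 each; log2 change 1.15, edgeR adjusted p = 0.647). Ripk1 was at 12.2 to 14.3 TPM in all 4 group means. On this scale Zbp1, at 16.8 ± 18.5 TPM in Fadd-line knockout cultures, was above Ripk1 in 1 of 3 of them, culture 1 at 38.1 TPM, and it was at 1.46 ± 1.27 TPM with Fadd put back. Zbp1 averaged 0.55 ± 0.382 TPM in Casp8-line knockout cultures and 0.0333 ± 0.0416 TPM with Casp8 put back (SD, n = 3 each).

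Ticam1, the adaptor TRIF with the same interaction motif, averaged 1.93 and 1.74 TPM in the knockout and put-back groups of the Fadd line and 2.63 and 2.65 TPM in those of the Casp8 line. Mlkl transcript was still counted, at group means of 2.75 TPM in Fadd-line knockout cultures, 3.95 TPM with Fadd put back, 2.91 TPM in Casp8-line knockout cultures and 2.24 TPM with Casp8 put back. A gene-level count can hold reads from a transcript that makes no protein, so it does not check the Mlkl genotype. Tlr3, the endosomal sensor of double-stranded RNA, was the gene of this list most like Zbp1 (r = 0.749), closely followed by Tnfrsf1a (r = 0.747). Tlr3 had log2 changes of 1.35 and 1.22 in the Fadd and Casp8 lines. Cflar, Casp6, Tradd and Tnfrsf1a had log2 changes between -0.29 and 0.28 in the 2 lines. Those encode the caspase-8 regulator cFLIP, an apoptotic caspase, and the adaptor and receptor of TNF signalling.

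Of 10 genes that edit, degrade or silence the RNA and DNA that can feed ZBP1, edgeR called 0 in either line. Of all genes 1.52% passed in the Fadd line and 0.0061% in the Casp8 line. An unadjusted p under 0.05 was found for 2 in the Fadd line, beside 1682 of all 16396 genes. In the Casp8 line it was found for 0, beside 930 of all 16396 genes. DESeq2 called 1 in the Fadd line, Adar, beside 4.25% of all genes. Adar, which encodes the RNA editor ADAR1 with a Zα domain of its own, had 181.9 ± 99.4 CPM in Fadd-line knockout cultures and 72.3 ± 20.1 CPM with Fadd put back (SD, n = 3 each; log2 change 1.33, edgeR adjusted p = 0.104, DESeq2 adjusted p = 0.00959). It had 53.3 ± 11.9 CPM in Casp8-line knockout cultures and 35.7 ± 2.12 CPM with Casp8 put back (SD, n = 3 each; log2 change 0.58, edgeR adjusted p = 0.949). Adar followed Zbp1 over the cultures with r = 0.92 and the exonuclease gene Trex1 with r = 0.854. The silencing genes Trim28, Setdb1 and Morc3, the deaminase-family gene Adarb1, the dNTP hydrolase gene Samhd1 and the 3 RNase H2 subunits had log2 changes between -0.35 and 0.18 in both lines.

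No gene around Zbp1 passed in either line, beside 1.52% of all genes in the Fadd line and 0.0061% in the Casp8 line. The nearest tested genes were Gm14303, Rae1 and Rbm38 below it on the chromosome and Pmepa1, 5.54 kb away, Ppp4r1l-ps and Rab22a above it. By edgeR their log2 changes ran between -0.35 and 0.60. Pmepa1, an inhibitor of TGF-beta signalling on the same strand, averaged 32.5 and 41.4 CPM in the knockout and put-back groups of the Fadd line and 87.3 and 68.8 CPM in those of the Casp8 line.

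The deposited counts and FPKM together give the mean length of the Zbp1 transcripts to which RSEM assigned the reads. It was 1099, 1114 and 1108 bases in Fadd-line knockout cultures and 1232 and 1057 bases in Fadd put-back cultures 2 and 3. It was 1149, 1169 and 1064 bases in Casp8-line knockout cultures. All lie between the lengths of the 2 coding transcripts. Fadd put-back culture 1 gave 2307 bases on 11 counts, and Casp8 put-back cultures 1 and 2 gave 1271 and 766 bases on 7 and 1 counts, too few to read a mixture from. In the 8 cultures with 13 or more counts the implied length stayed between 1057 and 1232 bases while the level of Zbp1 spanned 0.300 to 66.1 CPM.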

How the data were processed

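Per the labels' protocols, stranded total RNA libraries were sequenced as paired ends, Trim Galore with Cutadapt trimmed the reads, which were then aligned with STAR to mm10 with GENCODE M22 and counted with RSEM; versions per the submitters' processing notes are Trim Galore 0.5.0 and STAR 2.7.5a. The deposited gene tables hold, per the file headers, an expected count, TPM and FPKM for each gene, as made by the authors' RSEM run. Another deposited table gives expected counts of endogenous retrovirus regions, whose making the sources used here do not describe. Of 55665 gene rows, 92 spike-ins with 0 counts were left out.

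Expected counts were rounded. Genes were filtered with filterByExpr (minimum count 10, 16396 kept), scaled by TMM and fitted with 1 mean per group over 12 libraries in edgeR 4.0.16 (R 4.3.3), with Benjamini-Hochberg adjustment over all genes; an adjusted p under 0.05 counts as passed. Standard errors are the log2 change over the square root of F. Log2 CPM uses a prior count of 2. Alternatives used DESeq2 1.42.0, limma 3.58.1 (voom, and log2 of deposited TPM plus 0.1 or 1), other size factors, no filter, replicate blocks and left-out libraries. The implied length was read from count over FPKM, calibrated in each library on genes with 1 annotated transcript and at least 500 counts. Code was tested on simulated counts. Intervals and limits at 3 counts cover counting error only.

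Within a line, deviations from the group means over all genes were positively correlated between same-numbered libraries (0.66, 0.391 and 0.639 in the Fadd line, 0.203, 0.305 and 0.127 in the Casp8 line). A number was therefore taken to pair cultures of one line, although no label says so and Zbp1 deviated in opposite directions within each pair. Zbp1, the lists and the alternatives were chosen with earlier results of these data known. Genes named by rule are Zbp1, the targeted genes, the 10 most like Zbp1, all tested members of the partner, upstream and RNA lists, the 6 members of the other lists with the highest mean TPM plus those called, the 3 neighbours on each side and the cell type markers; genes above Zbp1 in a list were named after their values were seen. No Zbp1 sequence was at hand, so none is shown. Some genes that the rule names are not reported here.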

Additional observations from a re-analysis of the deposited data

Results flagged for a closer look

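Of the genes named by rule, 3 had log2 changes that differed between the lines, where 138 of all 16396 genes tested passed. They were the 2 genes knocked out and the collagen gene Col1a2. The log2 change of Casp8 differed by 3.45 between the Fadd and Casp8 lines, being -0.18 in the Fadd line and -3.63 in the Casp8 line (edgeR adjusted p of the difference = 0.00283). The log2 change of Fadd differed by -7.94, being -7.84 in the Fadd line and 0.11 in the Casp8 line (edgeR adjusted p of the difference = 4.829e-05). The log2 change of Col1a2 differed by -7.76, being -7.70 in the Fadd line and 0.06 in the Casp8 line (edgeR adjusted p of the difference = 0.00236). For Zbp1 itself the difference was -0.24 and did not pass.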

How the results depend on the processing

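The Zbp1 log2 changes kept their sign under every alternative run, between 1.58 and 4.23 in the Fadd line, and from 0.56 to 6.41 in the Casp8 line, and neither passed under any. The mean over both lines passed with DESeq2 (3.81), without the filter on low counts (3.75) and without the replicate 1 libraries (3.99). The difference between lines changed sign on log2(TPM + 0.1) and log2(TPM + 1), at 1.43 and 1.95, and ran from -2.30 to 0.38 with 1 library left out; without the replicate 1 libraries it was -4.82 and passed. The cause of these shifts was not tested.

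Under a replicate block within each line the difference between knockout groups, 4.90, did not pass; with 1 library left out it ran from 3.69 to 5.72. The difference between put-back groups did not pass with limma-voom (5.33), on log2(TPM + 0.1) or log2(TPM + 1) (2.86 and 1.08), with the replicate block over all libraries (5.61) or within lines (5.65), or with only the 6 libraries compared (5.46); with 1 library left out it ran from 4.87 to 7.56. The block ended no other Zbp1 call; within lines it also ended those of Oasl1, Slfn8, Ifi47, H2-K1 and Relb.

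Calls among the 53 interferon genes moved most. In the Fadd line they numbered 16 with DESeq2 (beside 4.25% of all genes) and 5 without the filter (1.13%). On log2(TPM + 0.1) and log2(TPM + 1) they numbered 5 and 7 (1.5% and 1.06%). They numbered 0 with the replicate block within lines (2.71%) and 0 with only 6 libraries (1.18%). In the Casp8 line they numbered 13 with DESeq2 (0.872%) and 2 without the replicate 1 libraries (0.658%). Over both lines they numbered 35 with DESeq2, 0 with limma-voom, 14 without the filter, 1 on log2(TPM + 1), 1 and 0 with the replicate block over all libraries and within lines, 50 without the replicate 1 libraries, and 1 to 15 with 1 library left out. The shares of all genes passing over both lines were 0.543% in the fit reported, 3.3% with DESeq2, 10.9% without the replicate 1 libraries and 1.04% without Casp8 knockout culture 1, the library whose removal gave 15. With limma-voom the share was 0.421%, without the filter 0.654% and on log2(TPM + 1) 0.244%. With the replicate block it was 0.707% over all libraries and 1.09% within lines. With 1 library left out it ran from 0.316% to 1.06%. Without the 2 farthest cultures the correlations of Zbp1 with the interferon score were 0.925, 0.875 and 0.910 and did not pass, though 4 cultures of 1 line allow no p below 0.0417. The correlation with retrovirus totals ran from 0.206 to 0.494 with 1 library left out, and its unadjusted exact permutation p was 0.0255 without Casp8 put-back culture 3. At 8 counts over 3 libraries, depth limits every value of Zbp1 in the Casp8 put-back group.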
